A study of Mus musculus with 2 samples.

Results

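Mir455 and Mir140 are 2 microRNA genes of the mouse that lie inside other genes, Mir455 in the collagen gene Col27a1 and Mir140 in the ubiquitin ligase gene Wwp2. They are 2 of the 2202 miRNA genes counted in small-RNA libraries of heart tissue, and they were chosen by name from earlier results of these data and compared between the 2 libraries, so the values below are a description and carry no test. RNA below 30 nucleotides was sequenced from 2 hearts, taken at 25 days of age from male mice of strain B6CASTF1/J, the first-generation cross of C57BL/6J with CAST. The labels give no treatment, and no genotype or age separates the 2 libraries, called replicate 1 and replicate 2 after their labels, so one heart is compared with the other. Each animal has a number of its own in the labels, yet the donor identifier is shared, and if the RNA was not from separate animals the spread between the libraries is technical.

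A miRNA is cut from a hairpin transcript into short mature strands, called the 5p and 3p arms. One of them is loaded into an Argonaute protein and pairs with target mRNAs through its seed, bases 2 to 8, which lowers the output of those mRNAs. Mir140 is known from cartilage, where it is among the most abundant miRNAs and is needed for normal growth of the skeleton. Mir455 is also known from cartilage and, outside it, from the differentiation of brown fat cells. Both are known from mesenchymal cells, but whole heart tissue was sequenced here, and the files assign no count to a cell type.

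The mature sequences show what distinguishes the 2 genes as regulators, since the seed decides the targets. They are the RefSeq entries on GRCm38.p6, written 5′ to 3′ with the seed in capitals, each with the entry of another gene that has the same seed where there is one. The other arm of Mir140 is miR-140-5p, which had no entry in the sequences used, so genes sharing its seed were not looked for.

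miR-455-5p: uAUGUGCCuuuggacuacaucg

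miR-5129-3p, the same seed as miR-455-5p: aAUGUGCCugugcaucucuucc

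miR-455-3p: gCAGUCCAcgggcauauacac

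miR-140-3p: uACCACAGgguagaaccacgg

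miR-497b, the same seed as miR-140-3p: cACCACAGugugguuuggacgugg

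The 3 member arms printed have 3 different seeds. Among the 1738 mature entries of the table, 2 others carry one of these seeds, and none other than miR-455-3p itself carries CAGUCCA. The genes of both were close to 0 in the heart. Mir5129, whose 3p arm has the seed of miR-455-5p, had 19 counts in replicate 1 and 7 in replicate 2. Mir497b, with the seed of miR-140-3p, had 3 counts in replicate 1 and 0 in replicate 2. The deposited counts are per gene, so the 5p and 3p arms of a member are summed and their shares are not known.

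Mir455 (ENSMUSG00000070102.1) lies on chromosome 4 of mm10 from 63256851 to 63256932 on the plus strand, 82 bases long. In the principal transcript of Col27a1, which has 61 exons, it sits in intron 10, 127 bases before the next exon, at 34.6% of the length of the transcript. Col27a1 encodes a fibrillar collagen known from cartilage. Its 5p arm spans 63256867 to 63256888 and its 3p arm 63256904 to 63256924, with 15 bases between them.

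Mir140 (ENSMUSG00000065439.1) lies on chromosome 8 from 107551244 to 107551313 on the plus strand, 70 bases long. In the principal transcript of Wwp2, which has 24 exons, it sits in intron 16, 963 bases before the next exon, at 94.0% of the length of the transcript. Wwp2 encodes a ubiquitin ligase of the Nedd4 family. A further annotated Wwp2 transcript with 1 exon, a retained intron, covers the miRNA gene. The 3p arm of Mir140 spans 107551288 to 107551308. Both genes are therefore transcribed in the direction of their hosts, Mir455 in the first part of a long collagen gene and Mir140 near the end of Wwp2, and host RNA was not measured in these libraries. Within 100 kb of each member no other miRNA gene is annotated.

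**Figure D1:**
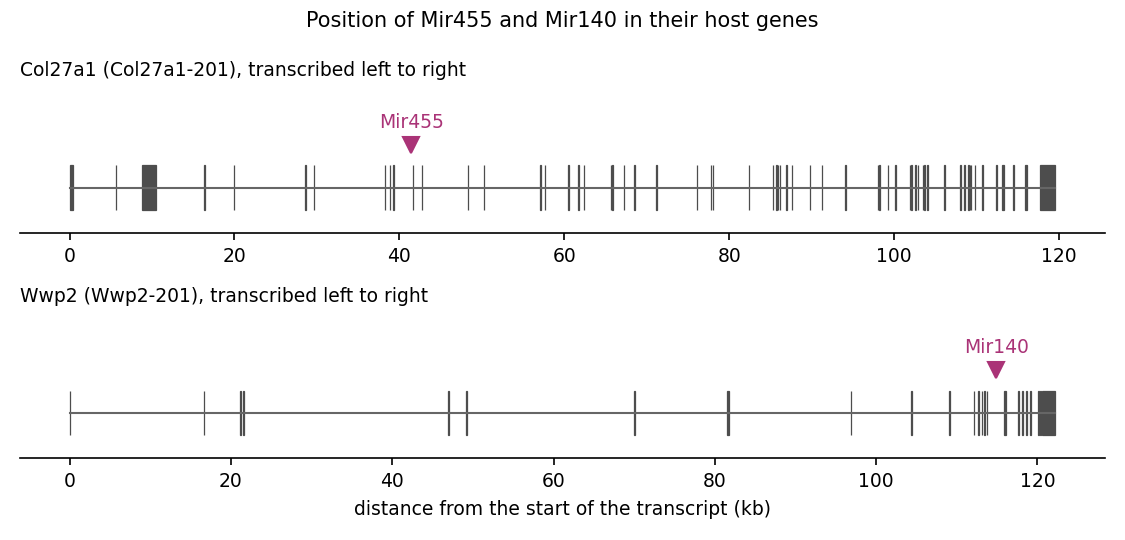
Exons (vertical blocks) of the principal transcripts of Col27a1 and Wwp2 along the distance from the transcript start in kb, with the miRNA gene marked by a triangle. Mir455 lies in intron 10 of Col27a1 at 34.6% of the transcript, and Mir140 in intron 16 of Wwp2 at 94.0%.

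Reads assigned to miRNA genes, on the strand of the gene, numbered 4930853 in replicate 1 and 5229819 in replicate 2, which were 37.3% and 36.4% of all reads. Levels are given in CPM, the count of a gene in each 1000000 of these assigned counts. Reads are of short mature RNA, so counts were not divided by the length of the gene except where said. No run of 20 bases in either member occurs in a miRNA gene at another locus, so neither has an annotated copy that would take its reads. On the opposite strand of both genes the count was 0 in both libraries, which allows up to 0.608 CPM there in the first library and 0.574 CPM in the second. All intervals and limits cover counting error only.

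Mir455 had 2597 counts in replicate 1 and 11171 in replicate 2. Scaled, that is 527 CPM in replicate 1 (exact Clopper-Pearson 95% interval 507 to 547) and 2136 CPM in replicate 2 (2097 to 2176), with a mean of 1331 ± 1138 CPM (SD, n = 2). The level in replicate 2 was high and the one in replicate 1 low, with an SD close to the mean. Mir455 was 4.06-fold higher in replicate 2 (exact 95% interval 3.89 to 4.23), a log2 ratio of 2.02. It moved from rank 86 of the 356 detected miRNA genes in replicate 1 to rank 45 in replicate 2, where detected means at least 10 counts in both libraries.

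Mir140 had 9065 counts in replicate 1 and 17901 in replicate 2. Its level was 1838 CPM in replicate 1 (1801 to 1877) and 3423 CPM in replicate 2 (3373 to 3473), with a mean of 2631 ± 1120 CPM (SD, n = 2). It too was higher in replicate 2, but by less than 2-fold. The ratio was 1.86-fold (exact 95% interval 1.82 to 1.91), a log2 ratio of 0.90, and its rank went from 46 to 37.

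**Figure D2:**
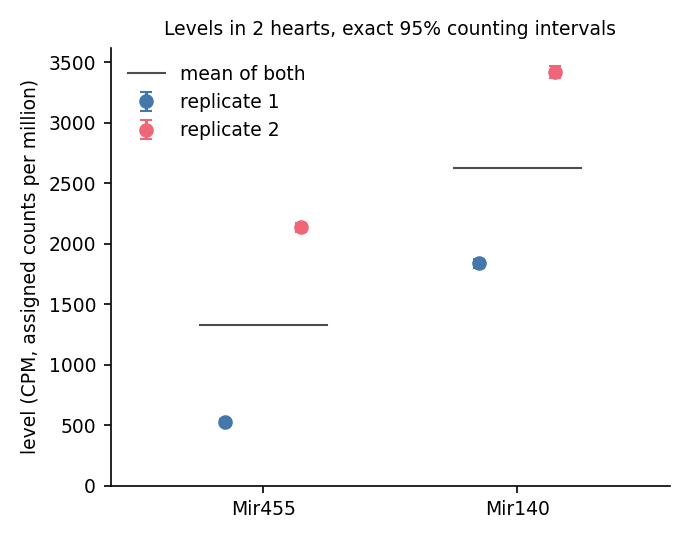
Level in CPM of Mir455 and Mir140 in each heart (points, with exact 95% counting intervals, most of them smaller than the symbol) and the mean of both (lines). Each gene is higher in replicate 2, Mir455 at 2136 against 527 CPM and Mir140 at 3423 against 1838 CPM.

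Both genes were minor components of the heart's miRNA counts. Mir455 made up 0.0527% of assigned counts in replicate 1 and 0.214% in replicate 2, and Mir140 made up 0.184% and 0.342%. As shares of all reads, including those placed at several loci or at none, Mir455 was at 0.0197% and 0.0778% and Mir140 at 0.0686% and 0.125%.

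By mean level Mir140 ranked 40 and Mir455 62 of 356. The genes next to Mir140 in that order were Mir34a (2815 ± 1913 CPM) and Mir155 (2759 ± 11.0 CPM) above it, and Mir127 (2604 ± 143 CPM) and Mir674 (2556 ± 1279 CPM) below it, all with n = 2. None of these 4 means differed from that of Mir140 by more than Mir140's SD of 1120 CPM. Around Mir455 stood Mirlet7c-2 (1436 ± 251 CPM) and Mir16-1 (1430 ± 686 CPM) above, and Mir342 (1321 ± 485 CPM) and Mir335 (1315 ± 190 CPM) below. These too lay within the SD of Mir455, which follows from their choice as the nearest by mean level. The places are loose beyond the nearest neighbours. Mir455 ranked 86 in replicate 1 and 45 in replicate 2, and Mir140 ranked 46 and 37.

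Mir140 exceeded Mir455 in both hearts, by a margin that differed between them. In replicate 1 there were 3.49 Mir140 counts for each Mir455 count (exact 95% interval 3.34 to 3.65), and in replicate 2 there were 1.60 (1.56 to 1.64). Per base of the annotated gene the same ratios of counts were 4.09 and 1.88. The odds of a Mir455 count over a Mir140 count were 2.18 times higher in replicate 2 (conditional exact 95% interval 2.07 to 2.29). This ratio needs no library total, since both genes were counted in the same libraries. A ratio between genes also carries the ligation preferences of small-RNA cloning, which act on both libraries alike only if the preparations were alike.

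Against all detected genes the 2 members stood differently. Of the 356 genes, 27 (7.58%) were more than 2-fold higher in replicate 2 and 36 (10.1%) were more than 2-fold lower, with a median log2 ratio of 0.02 and an SD of 0.86 across genes. With DESeq2 size factors the split was 31 higher and 27 lower. In either direction 63 genes (17.7%) were past 2-fold. Mir455 is 1 of the 27, and Mir140 is not. Mir140 is 1 of the 68 genes (19.1%) more than 1.5-fold higher in replicate 2. The SD across genes places the log2 ratio of Mir455 (2.02) beyond 2 SD and that of Mir140 (0.90) close to 1 SD. By absolute log2 ratio Mir455 ranked 10 and Mir140 78. Since each animal gave 1 library, the animals and the library preparations cannot be told apart.

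More than 4-fold higher in replicate 2 were 5 genes, 1.4% of those detected, namely Mir31, Mir26a-1, Mir669e, Mir34c and Mir455. By assigned counts Mir455 was the highest of these 5 in both libraries. Mir31 had 205 and 3653 counts in replicates 1 and 2, and Mir26a-1 had 115 and 830. Mir34c had 63 and 328, and Mir669e had 15 and 91. Mir26a-1 and Mir669e each share a run of bases with 1 miRNA gene at another locus. Reads placed at several loci may be missing from both, so their true place below Mir455 is not known. Of all 356 detected genes, 4 had a higher ratio than Mir455 and 32 a higher ratio than Mir140. With so few above Mir455, a count of 0 in a smaller set of genes adds little. Of the 61 detected genes with a mean level above that of Mir455, 0 had a higher ratio, and of the 39 above Mir140, 5 did. Within a 2-fold range of the mean level of Mir455 lay 44 other genes with a median log2 ratio of 0.17, and 0 of them had a higher ratio than Mir455. Within the same range of Mir140 lay 35 genes with a median log2 ratio of 0.22, of which 7 had a higher ratio than Mir140. The place of Mir455 past 4-fold depends on the scaling, since with TMM scaling its ratio was 3.93-fold per all reads 3.96-fold, and 3.97-fold with the red blood cell genes listed below left out of the totals.

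**Figure D3:**
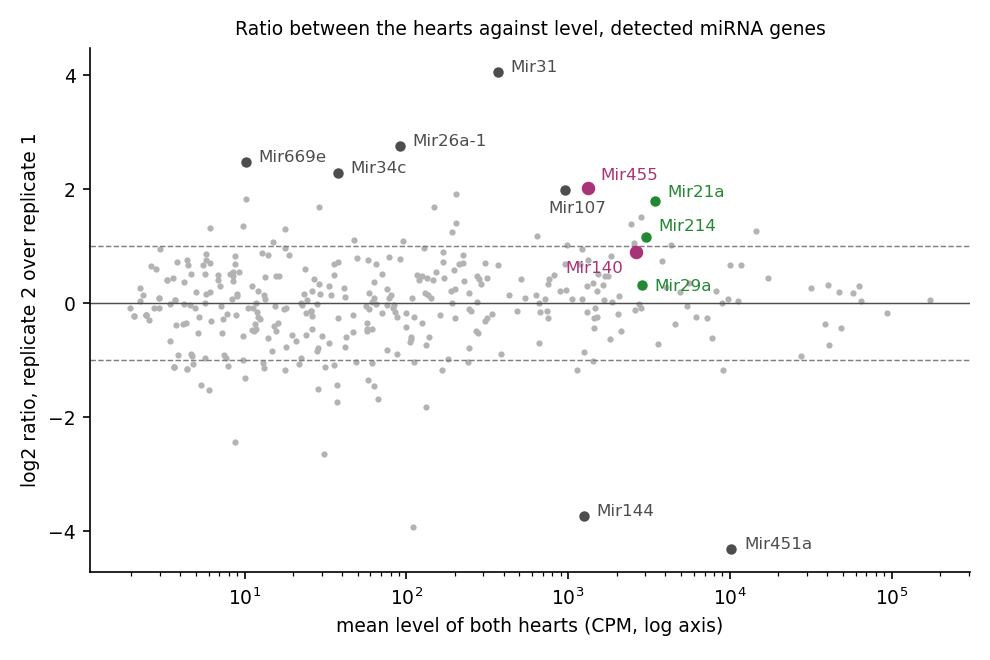
Log2 ratio of replicate 2 over replicate 1 against the mean level in CPM (log axis) for the 356 detected miRNA genes (grey), with dashed lines at 2-fold. Mir455 and Mir140 are in purple, Mir21a, Mir214 and Mir29a of the fibroblast list in green, and other labelled genes in dark grey. The other detected genes of the fibroblast list, among them Mir199b, are not marked. Above Mir455 (2.02) lie 4 of the 356 genes, all of lower mean level, and Mir140 (0.90) lies just under the 2-fold line.

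The genes with the ratio nearest to that of each member were listed, with genes averaging under 100 counts left out. Over 2 libraries each gene has a single ratio, and any gene has nearest ones, so nearness does not measure likeness. Nearest to Mir455 (log2 ratio 2.02) were Mir107 in an intron of Pank1 (1.99), Mir298 (1.91), Mir21a (1.79), Mir34c (2.29) and Mir669l (1.69). Mir107, the closest, had 1896 and 7965 counts, and its hairpin shares 20 bases with miRNA genes at other loci, so reads placed at several loci may be missing from it. Nearest to Mir140 (0.90) were Mir338 (0.90), Mir339 (0.86), Mir27a (0.96), Mir221 (0.83) and Mir669o (0.98). The same limit holds for Mir669l, Mir669o and Mir27a, which share 20 bases with 35, 56 and 1 miRNA genes at other loci.

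Markers of the cells that could hold the 2 genes were set beside them in 8 lists written with earlier results of these data known. The cartilage list holds Mir455, Mir140 and 6 other genes named for work in cartilage. Of its 7 detected genes 1 was more than 2-fold higher in replicate 2, Mir455, and 2 were more than 2-fold lower (1 with DESeq2 size factors), with a median log2 ratio of -0.69, against 7.58% higher and 10.1% lower among all detected genes. The 5 detected genes other than the members were all lower in replicate 2, as were 173 (48.6%) of all detected genes: Mir337 had a log2 ratio of -0.59, Mir204, in an intron of Trpm3, -0.69, Mir138-1 -0.89, Mir138-2 -1.35 and Mir211, in an intron of Trpm1, -1.06. Mir138-1 and Mir138-2 each have a run of 20 bases in common with another miRNA gene elsewhere. The sixth, Mir675 in H19, was not detected, with 1 and 8 counts. So in this list the members lay on one side of 0 and the other detected genes on the other. Without the members the list summed to 499.9 CPM in the first library and 289.9 CPM in the second. Mir140 alone stood at 368% of that sum in replicate 1 and 1181% in replicate 2.

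In the fibroblast list 7 of 8 detected genes were higher in replicate 2, as were the members and 183 (51.4%) of all detected genes. The 1 lower gene was Mir199b (log2 ratio -0.47, 64 and 49 counts, fold interval 0.487 to 1.06). Its counting interval includes equal levels. So do those of Mir199a-2 (42 and 50 counts, 0.730 to 1.73) and Mir29b-2 (36 and 50 counts, 0.836 to 2.07), 2 of the 7. All detected genes of the endothelial list (3) and the smooth muscle list (2) were higher too. This direction was therefore not particular to the fibroblast list. The list holds Mir21a, known from cardiac fibroblasts and fibrosis, Mir199a-1, Mir199a-2, Mir199b and Mir214, and the 4 Mir29 genes, known as repressors of collagen mRNAs. By more than 2-fold 3 were higher and 0 lower, with a median log2 ratio of 0.41, against 7.58% and 10.1% of all detected genes. Mir21a had 7592 and 27935 counts in the 2 libraries, which after scaling is 3.47-fold higher in replicate 2 (3.38 to 3.56). Mir214, in the transcript Dnm3os, had 9209 and 21823 counts, 2.23-fold higher (2.18 to 2.29), and Mir29a had 12477 and 16601, 1.25-fold higher (1.23 to 1.28). The third past 2-fold was Mir29b-1, with 50 and 132 counts. Mir199a-1 was at 0 in both libraries, and 6 of the 9 genes have a run of 20 bases in common with another miRNA gene elsewhere. The summed level of the list was 6091 CPM in replicate 1 and 12898 CPM in replicate 2.

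Set against that sum, the members parted. Mir455 amounted to 8.65% of the summed fibroblast-list counts in replicate 1 and 16.6% in replicate 2, 1.92 times higher (conditional exact 95% interval 1.83 to 2.00). Mir140 amounted to 30.2% and 26.5%, a ratio of 0.879 (0.854 to 0.905). Mir455 was thus higher in replicate 2 also relative to this sum, while Mir140 was slightly lower relative to it. The sum is carried by Mir21a, Mir214 and Mir29a, and gene by gene the log2 ratio of Mir140 lay above that of 5 of the 8 detected genes of the list and below that of 3. In whole tissue a larger number of cells of a type and more RNA per cell cannot be told apart.

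The other lists are given by their direction, sums and leading genes, and their part in the ratios of the members was not tested. Higher in replicate 2 were 3 of 3 detected endothelial genes (median log2 ratio 0.83) and 2 of 2 smooth muscle genes (0.40). The fibroblast median was 0.41. Of the leukocyte genes 3 of 5 were higher (0.42), of the cardiomyocyte genes 2 of 5 (-0.09) and of the red blood cell genes 2 of 4 (-1.52). The smooth muscle genes Mir143 and Mir145a were 1.20-fold and 1.44-fold higher in replicate 2, with a list sum of 30025 and 36448 CPM and Mir145b at 0 and 3 counts. The endothelial list summed to 57798 and 72018 CPM, with Mir126a 1.23-fold, Mir221 1.77-fold and Mir222 3.22-fold higher, and Mir126b at 3 counts in each library. In the cardiomyocyte list, which summed to 4533 and 6558 CPM, Mir208a was 2.62-fold higher while Mir499 (0.940-fold), Mir208b (1.01-fold) and Mir1a-2 (0.836-fold) were near 1. Of its 8 genes 5, all of them Mir1a or Mir133 genes, share a run of bases with another miRNA gene elsewhere. Reads placed at several loci may therefore be missing from this sum and from Mir1a-2. The leukocyte list summed to 5437 and 6444 CPM, with Mir155 at 0.994-fold, Mir150 at 1.39-fold, Mir146 at 2.03-fold, Mir142 at 0.540-fold and Mir142b at 0 in both. The red blood cell list went the other way, from 22579 CPM in replicate 1 to 2398 CPM in replicate 2, through Mir451a (0.0506-fold) and Mir144 (0.0753-fold), while Mir486 (1.61-fold) and Mir3107 (1.73-fold) were higher. Mir486 and Mir3107 overlap on opposite strands of the same locus, so they are not separate markers. Leaving the red blood cell list out of the totals left Mir455 at a log2 ratio of 1.99 and Mir140 at 0.87, an alternative chosen after seeing the data.

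**Figure D4:**
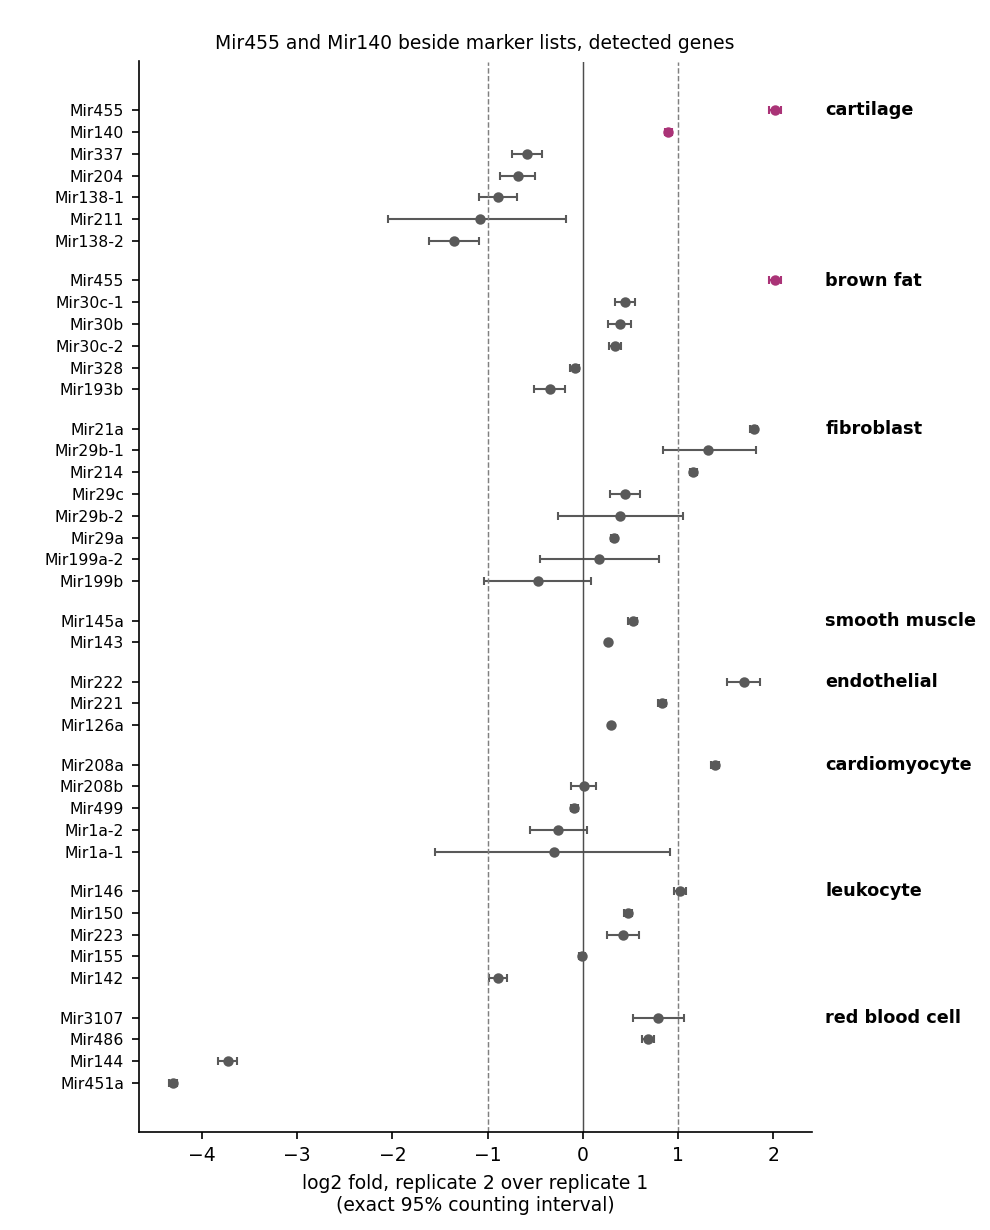
Log2 fold of replicate 2 over replicate 1 with exact 95% counting intervals for the detected genes of 8 marker lists, with Mir455 and Mir140 in purple and dashed lines at 2-fold. The 5 other detected cartilage-list genes lie between -0.59 and -1.35. Past 2-fold on the side of Mir455 lie Mir21a, Mir214 and Mir29b-1 (fibroblast), Mir222 (endothelial), Mir208a (cardiomyocyte) and Mir146 (leukocyte). Past 2-fold on the other side lie Mir138-2 and Mir211 (cartilage) and Mir451a and Mir144 (red blood cell).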

How the data were processed

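Small-RNA libraries from 2 hearts, numbered as biological replicates 1 and 2 per the labels, form 1 group. The labels give the age as 25 days, while the sample descriptions put months after the same number; days were used. The deposited values are raw read counts per miRNA gene on mm10 with GENCODE M21, per the text deposited with the files. Aligner and counter: not given in the sources used here. Reads from the CAST allele were placed on the C57BL/6J sequence of mm10 in both libraries. The files hold 3 count columns, of which the one for the gene's own strand was used. The 4 entries of reads assigned to no gene were left out of totals, among them 41.6% and 37.4% of reads placed at several loci.

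All 2202 gene identifiers matched GENCODE M21, which gave symbols, positions and hosts on the same strand. Log2 ratios use a pseudocount of 0.5 counts, while folds of single genes use none. Intervals are exact, from scipy 1.17.1, and were tested on simulated data. edgeR's quasi-likelihood test has no contrast in 1 group, so no p-value is given. TMM factors came from edgeR 4.0.16 and size factors from DESeq2 1.42.0, as alternatives. Other alternatives changed the denominator, strand column, count minimum, pseudocount and fold, or left out a library.

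Members and the 8 lists (53 entries, of which Mir486b did not match) were chosen with earlier results of these data known. Genes named are the members, the cartilage and brown fat lists, up to 4 detected genes of each other list and those at 0, neighbours in level and ratio, genes sharing a seed, and genes in collagen or Nedd4-family hosts. The genes past 4-fold, Mir29b-1, Mir29b-2, Mir199a-2, Mir199b, Mir145b and Mir126b, outside that rule, were named after their values were seen.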

Additional observations from a re-analysis of the deposited data

How the results depend on the processing

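Both members were higher in replicate 2 under each alternative run. With DESeq2 size factors, which were equal for both libraries, the log2 ratio was 2.10 for Mir455 and 0.98 for Mir140, and list medians were 0.45 (brown fat), 0.48 (smooth muscle), 0.91 (endothelial), 0.50 (leukocyte) and -1.44 (red blood cell). With TMM they were 0.85 for Mir140, 0.35 (smooth muscle) and 0.78 (endothelial). A change of scaling shifts every gene alike, by construction. Per all reads the mean level of Mir140 was 966 CPM, since the total is larger. Without one or the other library the level of Mir455 ranged from 527 to 2136 CPM and that of Mir140 from 1838 to 3423 CPM. With a minimum of 1 count, 70 of 594 genes were past 2-fold higher and 100 lower. The endothelial median was then 0.56 and the cardiomyocyte median turned from -0.09 to 0.065, since low-count genes enter. With a minimum of 100 counts 19 of 222 genes were higher and 17 lower. Of the 356 genes, 31 were higher and 27 lower with DESeq2 size factors, and 25 and 41 with TMM, against 27 and 36 as reported. Past 1.5-fold 68 genes were higher and 71 lower, and past 4-fold 5 and 5. By absolute ratio, Mir455 ranked 34 of 594 with a minimum of 1 count and 5 of 222 with 100. Of these and the other alternatives to the main results, 47 stayed within their limits, 19 moved beyond them and 1 reversed. The 47 include results that could not have moved. With 2 libraries, the level in either library lies within the SD of the mean by construction. That SD was wide enough for the level of Mir455 per all reads, 487 CPM, to stay within it. The odds of Mir455 over Mir140 used the same counts in the unstranded column. The 47 therefore overstate how stable the results are. With 2 libraries the spread between hearts is poorly known, and a ratio of either could not be given without a library.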

Other observations

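The brown fat list, which includes Mir455, showed no other gene past 2-fold. Of its 6 detected genes 1 was more than 2-fold higher in replicate 2 and 0 lower, with a median log2 ratio of 0.36, against 7.58% and 10.1% of all detected genes. Mir30c-1 (1.36-fold), Mir30b (1.31-fold) and Mir30c-2 (1.26-fold) were higher in replicate 2, Mir328 was at 0.941-fold, and Mir193b, known from brown fat, was at 0.785-fold with 689 and 574 counts. Mir365-1 had 5 and 10 counts, Mir365-2 had 5 and 4, Mir196a-2 had 0 and 1, and Mir196a-1 had 0 in both. For 6 of the 10 genes a run of 20 bases recurs in another miRNA gene elsewhere. Relative to the summed counts of the list without it, Mir455 was 3.77 times higher in replicate 2 (conditional exact 95% interval 3.59 to 3.95).

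Mir455 was the single detected miRNA gene inside a collagen gene, and Mir140 the single detected one inside a gene of the Nedd4 family. Of all 2202 miRNA genes 356 were detected, and the members were chosen with earlier results of these data known. Their detection is therefore not a result about such hosts. In the other collagen hosts, Gm47302 in Col3a1 had 1 and 2 counts and Mir711 in Col7a1 had 0 in both libraries. In the other Nedd4-family host with a miRNA gene, Smurf1, Mir7039 had 1 count in replicate 1 and 0 in replicate 2. Levels of these neighbours in kind therefore stood near or below the limit that 0 counts allow, 0.608 CPM in the first library and 0.574 CPM in the second.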
